A study of Mus musculus with 6 samples.

Results

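A set of 2437 distal chromatin regions carried acetylated histone H3 lysine 27 (H3K27ac) in every library from Ppp2ca-deficient hematopoietic stem cells but in only 1 or 2 of the 3 wild-type libraries. They were chosen from 104143 regions on chromosomes 1 to 19 and X, formed by merging the peaks of all 6 libraries wherever they overlapped by at least 1 bp. Of these, 63063 lay more than 10 kb from both ends of every RefSeq GRCm38 protein-coding gene and were called distal. The members made up 3.86% of the distal regions. The choice used the presence of a peak in each library, so every difference between genotypes in the member peaks themselves is a description and was not tested. The mirror set, with a peak in all 3 wild-type libraries and in 1 or 2 knockout libraries, held 171 regions, or 0.271% of the distal regions.

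The study profiled H3K27ac by CUT&RUN, in which an antibody brings a nuclease to the mark and the released DNA is sequenced, in primary bone marrow hematopoietic stem cells of mice. One group of 3 libraries was wild type for Ppp2ca (WT1 to WT3) and the other was deficient in it (KO1 to KO3). The series text speaks of 3 mice per genotype, but no label carries an animal number, so the p-values measure the spread between these libraries, which may be in part technical. The sources used here do not give the age and strain of the mice, the deleted part of Ppp2ca or how the deletion was driven. Ppp2ca had a peak within 1000 bp of a gene end in all 6 libraries, which does not check the genotype, since the deleted part is unknown. The nearest member lay 26215 bp from the gene, at chromosome 11, 52071224 to 52072609.

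H3K27ac is placed by the acetyltransferases p300 and CBP and marks active promoters and active enhancers. Enhancers are stretches of DNA that bind transcription factors and raise the transcription of genes on the same chromosome, often from an intron or from far outside the gene, and in blood stem cells many are bound by RUNX, GATA, ETS and E-box factors. Ppp2ca encodes a catalytic subunit of protein phosphatase 2A, a phosphatase that removes phosphate from serine and threonine in many signalling proteins, among them kinases of the MAPK pathway.

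The lists differed in length and depth between libraries. They held 21971, 29831 and 21822 peaks in WT1 to WT3 and 50364, 33963 and 35565 in KO1 to KO3. Read totals are not in the lists, and the commonest background of the peak caller, in fragments per 200 bp, served as a proxy for depth. It was 0.499, 0.584 and 0.498 in WT1 to WT3 and 0.738, 0.465 and 0.827 in KO1 to KO3, so KO2 lay below all 3 wild-type libraries and the other 2 knockout libraries lay above them. The part that depth had in the member set was not tested. As a check of the cell label, gene-end peaks were present in all 6 libraries at the stem and progenitor genes Runx1, Tal1, Lyl1, Etv6, Hhex and Cxcr4. They were present in none at Gata2, Mecom, Hlf, Hoxa9, Slamf1 and Ly6a, so several defining genes of the labelled cells were not marked at their ends. Nor were they present in any library at the progenitor genes Cd34 and Flt3. Genes of other organs had gene-end peaks at 0 to 2 of 32 genes per library and housekeeping genes at 19 to 28 of 30. Genes of T and NK cells had them at 2 to 4 of 27 in the wild-type libraries and 6 to 9 in the knockout libraries, and genes of endothelium and stroma at 1 to 2 and 2 to 5 of 22. Myeloid genes had them at 7 to 13 of 28 in WT1 to WT3 and 15 to 17 in KO1 to KO3, and erythroid genes at 7 to 13 and 13 to 15 of 22. In the same order, lymphoid progenitor and B cell genes had them at 5 to 8 and 6 to 12 of 26. Megakaryocyte genes had them at 6 to 10 and 6 to 11 of 24, and mast cell and basophil genes at 2 to 5 and 3 to 5 of 15. The ranges of the genotypes overlapped in the lymphoid, megakaryocyte and mast cell lists and touched in the erythroid and endothelial lists. They did not overlap in the T and NK cell and myeloid lists, where every knockout count was higher. All protein-coding genes had them at a mean of 27.9% in the wild type and 42.5% in the knockout, and no list was tested against them. The part that other cells had in the member set was not tested.

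The sequences available for the members are the annotated start windows that overlap them. Each window reaches from 250 bases before to 50 bases after a RefSeq start. Of the 2437 members, 184 (7.55%) overlapped such a window, against 1.36% of all distal regions. Windows of long noncoding RNAs overlapped 99 members and windows of protein-coding genes 92, with 7 members in both counts. The protein-coding starts are internal ones, since every member lies more than 10 kb from the outer ends of its gene. The share was 3.48% among distal regions that all 3 knockout libraries but no wild-type library listed and 11.1% among those with peaks in all 6. A gene end of a noncoding gene within 1 kb was found for 263 members (10.8%) and for 5.32% of all distal regions. It was found for 9.80% of the distal regions with 3 knockout peaks and no wild-type peak and for 14.4% of those with peaks in all 6. The median region width was 764 bp with no wild-type peak, 1009 bp for members and 1364 bp with peaks in all 6. The part that width had in these shares was not tested.

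The 6 windows printed here lie wholly inside a member and give the letters of regions described later: the best-ranked 2 noncoding and 2 protein-coding starts, the best-ranked window with an AP-1 motif and the best-ranked with an ETS motif. They were chosen after the values had been seen. The sequences are RefSeq GRCm38.p6, 5′ to 3′ on the strand of the gene, and capitals mark motif matches on either strand.
Gm34403, chr2:170184718-170185017, minus strand: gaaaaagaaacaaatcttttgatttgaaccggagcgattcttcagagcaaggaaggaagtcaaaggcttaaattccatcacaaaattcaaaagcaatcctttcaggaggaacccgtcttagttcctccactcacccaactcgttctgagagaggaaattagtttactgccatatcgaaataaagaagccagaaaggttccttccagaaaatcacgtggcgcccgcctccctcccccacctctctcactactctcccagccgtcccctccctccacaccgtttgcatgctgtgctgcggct
Gm13572, chr2:60036891-60037190, plus strand: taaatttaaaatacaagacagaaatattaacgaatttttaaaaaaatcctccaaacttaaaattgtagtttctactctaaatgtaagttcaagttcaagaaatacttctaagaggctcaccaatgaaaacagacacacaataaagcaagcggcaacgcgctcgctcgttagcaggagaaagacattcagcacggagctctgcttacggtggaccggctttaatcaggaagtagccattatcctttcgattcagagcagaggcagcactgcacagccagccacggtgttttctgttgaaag
Tnrc6a, chr7:123123635-123123934, plus strand: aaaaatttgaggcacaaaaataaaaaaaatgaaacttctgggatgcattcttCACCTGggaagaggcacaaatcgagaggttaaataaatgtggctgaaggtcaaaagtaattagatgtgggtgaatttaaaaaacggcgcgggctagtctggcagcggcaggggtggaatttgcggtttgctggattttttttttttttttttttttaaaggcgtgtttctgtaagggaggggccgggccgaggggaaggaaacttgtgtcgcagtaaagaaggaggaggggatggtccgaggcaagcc
Mga, chr2:119896978-119897277, plus strand: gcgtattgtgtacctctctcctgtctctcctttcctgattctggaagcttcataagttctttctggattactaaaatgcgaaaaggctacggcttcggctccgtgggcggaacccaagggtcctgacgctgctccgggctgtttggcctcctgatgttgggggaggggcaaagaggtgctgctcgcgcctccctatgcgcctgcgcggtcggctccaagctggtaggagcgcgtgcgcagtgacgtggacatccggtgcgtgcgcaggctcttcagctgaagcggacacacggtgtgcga
Gm51550, chr8:109750582-109750881, plus strand: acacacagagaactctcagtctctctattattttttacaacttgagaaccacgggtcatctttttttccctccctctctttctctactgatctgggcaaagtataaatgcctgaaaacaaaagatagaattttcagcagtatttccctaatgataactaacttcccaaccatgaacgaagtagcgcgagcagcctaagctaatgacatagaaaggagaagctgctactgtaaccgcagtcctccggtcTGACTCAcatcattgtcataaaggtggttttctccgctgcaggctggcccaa
Atxn7l1, chr12:33315155-33315454, plus strand: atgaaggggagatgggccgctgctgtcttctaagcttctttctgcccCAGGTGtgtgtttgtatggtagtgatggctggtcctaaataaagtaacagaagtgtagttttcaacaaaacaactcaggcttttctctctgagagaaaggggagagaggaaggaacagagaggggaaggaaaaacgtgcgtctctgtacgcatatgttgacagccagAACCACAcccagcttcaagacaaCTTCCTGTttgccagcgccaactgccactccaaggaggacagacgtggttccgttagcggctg
The AP-1 match in the Gm51550 window is TGACTCA, and the Tnrc6a and Atxn7l1 windows hold the E-box CACCTG or its reverse complement. Atxn7l1 also holds reverse complements of the RUNX motif TGTGGTT and of the ETS motif ACAGGAAG. The Gm34403, Gm13572 and Mga windows held none of the motifs searched.

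Both strands of the 200 start windows in members were searched for 5 motifs, beside all 30530 start windows. The AP-1 motif TGANTCA was in 10.5% of the member windows and 7.96% of all windows. The ETS motif ACAGGAAG was in 7.50% and 3.54%. The GATA motif AGATAAG was in 3.50% and 3.04%, the RUNX motif TGTGGTT in 5.00% and 5.36%, and the E-box CACCTG in 20% and 20.4%. Of the motifs searched, the ETS motif thus had the largest ratio between both sets, on 15 member windows. Noncoding starts were 104 of the 200 member windows and 10680 of all 30530. Among noncoding starts, ETS was in 8.65% and 4.06% and AP-1 in 12.5% and 9.49%. Among protein-coding starts, ETS was in 6.25% and 3.26% and AP-1 in 8.33% and 7.14%. The GATA, RUNX and E-box motifs were rarer in member windows among noncoding starts and more frequent among protein-coding ones. The median GC content was 52.7% in both sets. The median ratio of observed to expected CpG was 0.466 in member windows and 0.382 in all windows. This ratio was 0.374 and 0.244 among noncoding starts and 0.599 and 0.561 among protein-coding starts. A match describes these letters and is not evidence that a factor was bound.

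Members also held 2 annotated microRNA genes, short RNAs that pair with messenger RNAs mainly through the seed, bases 2 to 8, shown here in capitals. Mir6516 lies in a member between genes at chromosome 11, 117076589 to 117077515, and Mir7687 in a member inside Gse1 at chromosome 8, 120538048 to 120538881.
miR-6516-5p: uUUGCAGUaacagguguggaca
miR-6516-3p: uCAUGUAUgauacugcaaacag
miR-7687-5p: aGGCGGGGaaccugaggcgcaggcu
miR-7687-3p: cCACUCAGucgccccgccaca
The 4 mature RNAs have 4 different seeds. At the Mir6516 member the fold over background was 2.82 in KO1, 4.69 in KO2, 4.71 in KO3, 2.44 in WT2 and 2.98 in WT3. At the Mir7687 member it was 2.73, 2.56 and 2.74 in KO1 to KO3, 3.08 in WT1 and 3.68 in WT2, so the wild-type folds were the higher ones there. The fragments at the summit of that member numbered 20, 11 and 21 in KO1 to KO3, 8 in WT1 and 11 in WT2. The small RNAs themselves were not measured.

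Detection in the wild type was spread over all 3 libraries. A single wild-type peak was found in WT1 at 368 members, in WT2 at 540 and in WT3 at 359. At the rest 2 wild-type libraries had a peak, WT1 and WT2 at 416, WT1 and WT3 at 361, and WT2 and WT3 at 393. In all, WT1 had a peak at 1145 members (47.0%), WT2 at 1349 (55.4%) and WT3 at 1113 (45.7%), and WT2, the library with the longest wild-type list, had the most. Among the 5159 distal regions that all 3 knockout libraries listed, 1235 had no wild-type peak, 1267 had 1, 1170 had 2 and 1487 had 3. The members were thus 47.2% of these regions, a share that their own rule fixes. By the same rule 1408 regions were members with lists of equal length, 959 with peaks at q-values up to 0.05, 41 at a −log10 q-value of 5 or more, 1261 when summits had to lie within 250 bp, and 1528 without WT2.

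**Figure D1:**
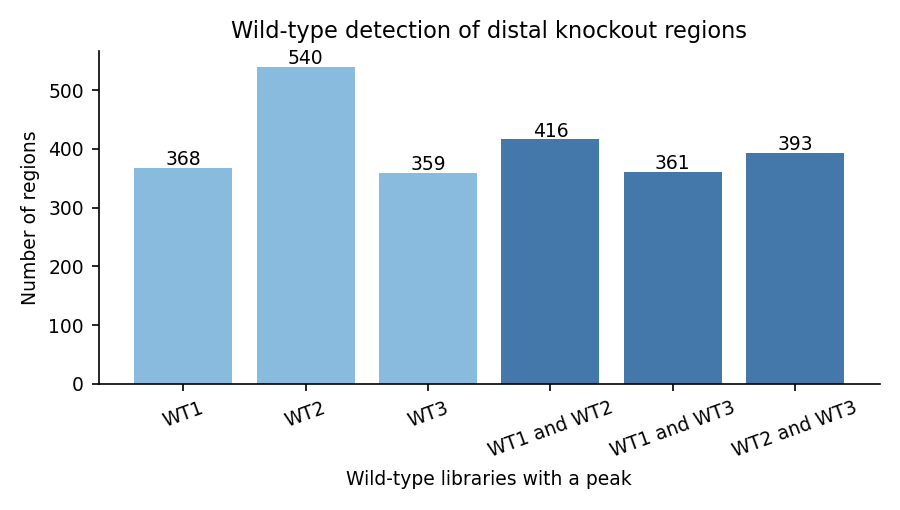
Number of member regions (y axis) by the wild-type libraries that listed a peak (x axis), light bars for 1 library and dark bars for 2. Each of the 6 patterns holds between 359 and 540 regions, and WT2 alone is the most frequent.

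The member peaks were modest in every library, and those of the knockout were wider and rested on more fragments. The caller's fold over background had a median of 3.37 in each of WT1, WT2 and WT3, and of 3.85, 3.68 and 3.81 in KO1 to KO3. The number of fragments at the summit, the pileup, had a median of 5 in each wild-type library and of 10, 7 and 11 in KO1 to KO3. Peak width had medians of 295, 304 and 287 bp in WT1 to WT3 and of 569, 406 and 585 bp in KO1 to KO3. The local background under the peaks also differed, with medians of 0.70, 0.76 and 0.70 fragments in WT1 to WT3 and 1.72, 1.08 and 1.92 in KO1 to KO3, and the fold is the pileup plus 1 divided by this background plus 1. Peaks of exactly 200 bp, the narrowest listed, made up 27.1%, 25.4% and 29.1% of the wild-type member peaks and 4.02%, 11.8% and 3.86% of those of KO1 to KO3. In bulk libraries of this kind, fewer cells with the mark and less of the mark per cell cannot be told apart.

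**Figure D2:**
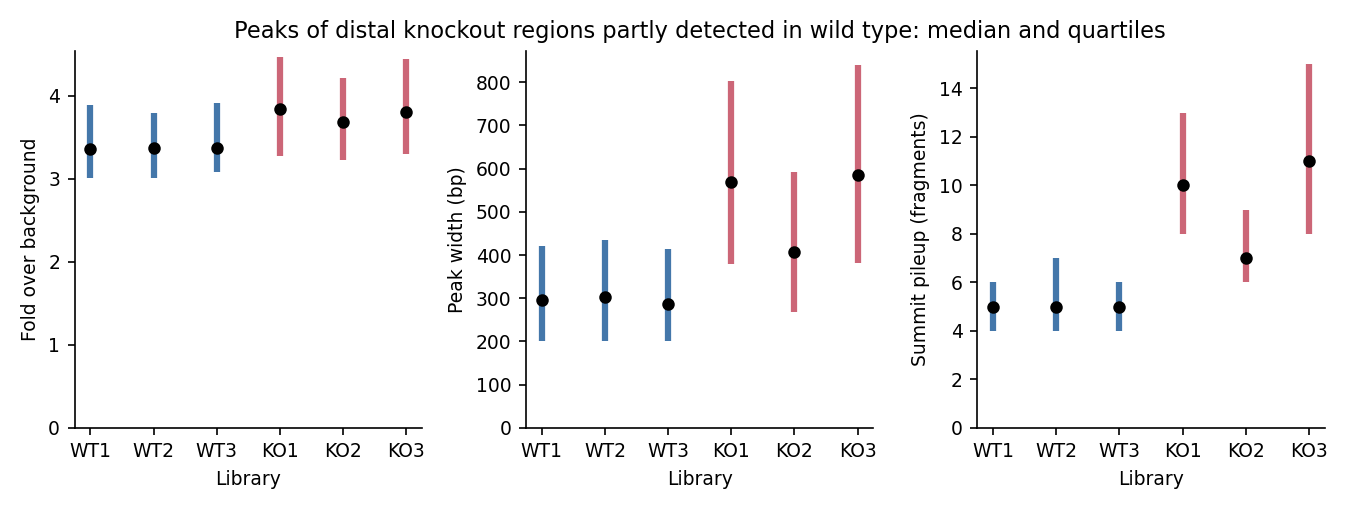
Fold over background, peak width in bp and summit pileup in fragments (y axes) of the best member peak in each library (x axis), with points at the median and bars from the lower to the upper quartile. The fold medians span 3.37 to 3.85, while median pileup is 5 in the wild-type libraries and 7 to 11 in the knockout libraries.

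Few wild-type member peaks passed a q threshold, although their median rank percentile of 40.3 to 43.2 put them in the stronger part of their own lists. A q-value of at most 0.05 was reached by 15.02%, 18.8% and 15.5% of the member peaks of WT1 to WT3, close to the 16.5%, 15.7% and 16.7% of their whole lists. In KO1 to KO3 it was reached by 82.4%, 60.6% and 86.6% of the member peaks, against 43.9%, 47.4% and 66.7% of the whole lists. At 1162 members (47.7%) all 3 knockout peaks passed this threshold, at 897 members 2 did, at 316 only 1 did and at 62 none did. At least 1 wild-type peak passed at 535 members (22.0%). The strict pattern, with all 3 knockout peaks and no wild-type peak at a q-value of at most 0.05, was met by 838 members (34.4%).

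Fold and pileup placed the wild-type peaks differently against those of the knockout. Every listed wild-type fold was below every knockout fold at 893 members (36.6%), and at 487 (19.98%) the highest fold of all belonged to a wild-type library. The highest wild-type pileup was below that of KO2, the knockout library with the lowest background, at 1784 members (73.2%). Peaks of the different libraries mostly touched but did not coincide. The best peaks of all 3 knockout libraries shared at least 1 bp at 1834 members (75.3%), and those of all listing libraries at 1080 (44.3%). A wild-type best peak overlapped a knockout best peak at 2425 members (99.5%). The median distance between summits was 199 bp for pairs of knockout peaks, 214 bp for knockout with wild-type peaks and 231 bp for pairs of wild-type peaks, so the summits of a genotype were about as far apart as those of both genotypes. Some library had more than 1 peak at 991 members.

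The members took a middle place among the distal regions that all 3 knockout libraries listed. When peaks are ranked within each list by p-value, with 0 as the strongest and 100 as the weakest, the rank percentile in the weakest knockout library had a median of 67.1 for regions with no wild-type peak. It was 59.8 for members with 1 wild-type peak, 47.4 for members with 2 and 25.9 for regions with 3. The median knockout fold rose in the same order from 3.64 over 3.70 and 3.87 to 4.29, and the median width of the region from 764 over 937 and 1095 to 1364 bp. These orders come from the contrast that defines the sets and carry no test. In 4 equal bins of the knockout rank, from strongest to weakest, members were 30.1%, 53.2%, 56.3% and 49.4% of the distal regions with 3 knockout peaks.

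**Figure D3:**
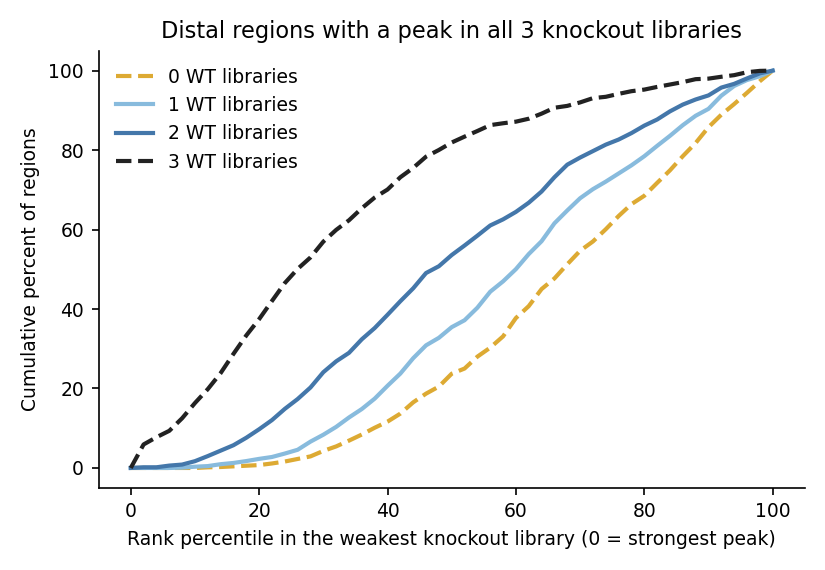
Cumulative percent of the distal regions listed by all 3 knockout libraries (y axis) against the rank percentile in the weakest knockout library (x axis, 0 strongest), by the number of wild-type libraries with a peak. The solid lines are the members, with medians of 59.8 and 47.4, and lie between the dashed lines for 0 wild-type libraries (median 67.1) and 3 (median 25.9).

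Members were 340 to 2630 bp wide and together covered 2.55 Mb. Their distance from the nearest protein-coding gene end ran from 10002 bp to 1639430 bp with a median of 31422 bp. It was up to 20 kb at 726 members, 20 to 50 kb at 942, 50 to 100 kb at 432 and over 100 kb at 337. Inside the body of a protein-coding gene lay 1448 members (59.4%) and between genes 989, of which 199 were over 100 kb from any gene end. Whether a region is exonic or intronic was not analysed here. The share inside genes was 54.9% for distal regions with no wild-type peak and 53.3% for those with 3, and these differences were not tested. On chromosome X lay 39 members (1.60% of the members), which were 1.89% of its 2063 distal regions, beside 3.86% over all chromosomes analysed. Of the 73 distal regions on X that all 3 knockout libraries listed, members were 53.4%, beside 47.2% over all chromosomes. At the distance limit, a member inside Fgd3 lay 10002 bp and one near Tspan2 10033 bp from a gene end. Just outside it, 2 otherwise qualifying regions at Pik3ap1 and Anp32e lay 9996 bp from one. Fold in KO1 to KO3 was 3.97, 3.93 and 5.24 at Fgd3 and 3.66, 3.57 and 3.85 at Pik3ap1.

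The members with the best rank in their weakest knockout library included a pair on chromosome 12. The first, at 54729158 to 54730091, lay between genes, 16248 bp from an end of Snx6, which encodes a sorting nexin. Its fold was 9.72, 10.1 and 7.87 in KO1 to KO3, 5.11 in WT1 and 5.42 in WT3, with pileups of 34, 28 and 30 against 8 and 8. The second, at 54709999 to 54710974, lay 14100 bp from an end of Eapp, and its fold was 7.91, 6.62 and 9.0 in KO1 to KO3, 5.00 in WT1 and 5.05 in WT2. Both had every knockout value above every wild-type value. A member at chromosome 19, 61199499 to 61200436, lay 16755 bp from Csf2ra, which encodes the alpha chain of the GM-CSF receptor. Its fold was 10.3, 7.65 and 7.60 in KO1 to KO3 against 3.16 in WT2 and 3.95 in WT3. A member near Hsd17b12, at chromosome 2, 94178195 to 94179008, had folds of 8.91, 7.50 and 8.26 against 2.44 in WT2 and 4.0 in WT3. At the Csf2ra and Hsd17b12 members the wild-type peaks rested on 3 to 5 fragments and the knockout peaks on 11 to 23.

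Other strongly ranked members had wild-type folds as high as those of the knockout. The Tnrc6a member, at chromosome 7, 123123264 to 123124652, holds the internal start whose window is printed above, and Tnrc6a encodes a scaffold of microRNA-guided silencing. Its fold was 7.23, 7.14 and 6.74 in KO1 to KO3, 6.88 in WT1 and 7.28 in WT2, and no peak was listed in WT3. Pileup was 22, 16 and 23 in KO1 to KO3 against 10 in WT1 and 14 in WT2, so pileup separated the genotypes here where fold did not. Near Fblim1, at chromosome 4, 141558340 to 141560217, the fold was 5.89, 5.38 and 6.28 in KO1 to KO3, 5.56 in WT1 and 5.42 in WT2. The widest member, 2630 bp inside Nedd9 at chromosome 13, 41466193 to 41468822, had 4.88, 5.07 and 4.86 in KO1 to KO3, 3.12 in WT1, below the knockout range, and 6.92 in WT2, its highest value. Nedd9 encodes a scaffold protein of adhesion signalling. A lower wild-type value was found inside Zfp445, at chromosome 9, 122865096 to 122866106, with 6.02, 6.32 and 7.69 in KO1 to KO3 against 4.82 in WT2. It was also found inside Mgat4a, at chromosome 1, 37477989 to 37479989, with 4.18, 5.38 and 4.96 against 3.03 in WT1 and 3.02 in WT2. At chromosome 15, 85657177 to 85658753, 75356 bp from Wnt7b, which encodes a secreted signal, the values were 5.33, 4.66 and 5.57 against 4.05 in WT1 and 3.67 in WT2. Near Scaf8, at chromosome 17, 3083591 to 3084649, they were 4.50, 3.82 and 3.49 against 2.85 in WT1 and 2.64 in WT3.

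The members whose start windows are printed above also differed among themselves. The member with the Gm34403 start, between genes near Zfp217 at chromosome 2, 170184551 to 170186135, had folds of 4.55, 5.08 and 5.56 in KO1 to KO3, 2.55 in WT1 and 3.53 in WT3. At Gm13572, inside Baz2b at chromosome 2, 60036665 to 60037921, they were 5.66, 5.05 and 5.62 with 4.07 in WT3. Inside Mga, which encodes a repressor that pairs with MAX, at chromosome 2, 119896800 to 119898437, they were 7.64, 5.00 and 6.03 with 3.49 in WT1 and 4.64 in WT2. All 3 of these members had every knockout fold above every wild-type fold. So did the member with the AP-1 match at Gm51550, at chromosome 8, 109750148 to 109750927, with 6.42, 5.23 and 7.60 against 3.95 in WT1 and 3.29 in WT3. At Atxn7l1, at chromosome 12, 33313919 to 33315575, with the ETS, RUNX and E-box matches, the knockout values of 2.96, 3.56 and 3.1 overlapped the wild-type values of 3.98 in WT1 and 3.35 in WT2.

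Each member was assigned to the protein-coding gene or genes it lay in, or otherwise to the gene with the nearest end within 100 kb. This gave 1622 of 21631 genes, or 7.50%, and 16.8% of the 9679 genes with any distal region. Assignment rises with gene length, since a distal region must fit between the ends of a gene or beyond them. It was 1.76% of genes up to 10 kb, 5.06% of genes of 10 to 50 kb, 16.3% of genes of 50 to 100 kb and 25.6% of longer genes. Counts for the gene lists that follow are to be read beside these shares and the length of the listed genes. Distal regions with no wild-type peak were likewise assigned to 935 genes and those with 3 to 1042. In that order, they reached 4 and 7 stem cell transcription factors, 3 and 10 surface and niche genes, and 3 and 5 cytokine genes. They reached 2 and 2 protein phosphatase 2A genes, 7 and 6 PI3K, MAPK and mTOR genes, and 7 and 6 AP-1 genes. For NF-kB genes the counts were 5 and 5, for apoptosis genes 6 and 3, and for chromatin regulators 5 and 6. No list was tested.

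**Figure D4:**
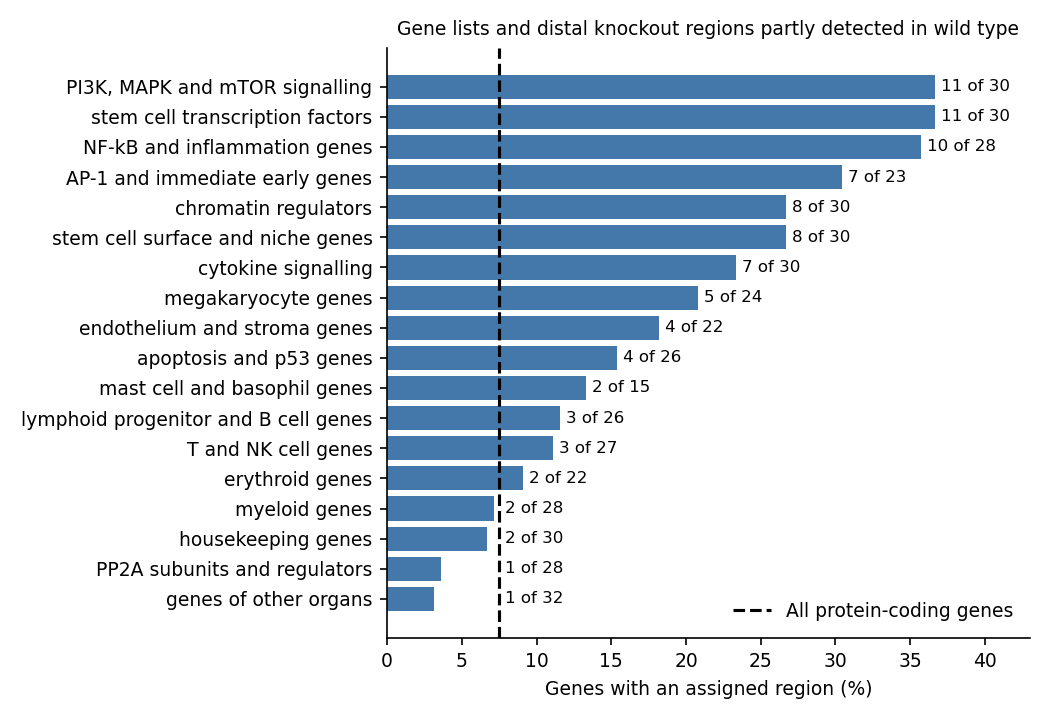
Percent of the genes of each of 18 lists that have an assigned member region (x axis), with the number of genes of those matched written at each bar. The dashed line marks the 7.50% of all protein-coding genes, and the bars run from 1 of 32 genes of other organs to 11 of 30 for stem cell transcription factors and for PI3K, MAPK and mTOR signalling.

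Genes that define stem cells were among the assigned ones. Of 30 genes listed as stem cell transcription factors, 11 had a member: Runx1, Lmo2, Fli1, Erg, Mecom, Meis1, Prdm16, Etv6, Ikzf2, Msi2 and Nfix, with 22 members in all. The list is not of transcription factors alone, since Msi2 encodes an RNA-binding protein. The median length of the listed genes was 96761 bp, against 17329 bp for all genes. Etv6, which encodes an ETS-family repressor needed by adult stem cells, held 4 members, all inside the gene. Erg, an ETS factor of stem cell maintenance, held 3 and Runx1, a master regulator of definitive hematopoiesis, had 3, with 2 of them inside. Distal regions with peaks in all 6 libraries were also assigned here, 4 to Runx1, 4 to Lmo2, 3 to Etv6 and 2 to Erg. Fli1 had 2 of these and Msi2 1, while Mecom, Meis1, Prdm16, Ikzf2 and Nfix had none. Runx1, Lmo2, Ikzf2 and Msi2 each had 1 distal region with 3 knockout peaks and no wild-type peak. At Erg, Mecom, Prdm16 and Nfix no library had a gene-end peak, so these genes had distal peaks and none at their ends. Among the members of this list, the best-ranked lay 61009 bp from Lmo2, an adaptor of the TAL1 complex, at chromosome 2, 103895972 to 103896894. Its fold was 3.25, 3.61 and 3.52 in KO1 to KO3, 3.33 in WT1 and 2.68 in WT3. The best-ranked Erg member, at chromosome 16, 95464244 to 95465552, had 3.79, 5.70 and 3.72 in KO1 to KO3, 2.69 in WT1 and 4.12 in WT3. In both, the fold ranges of the genotypes overlapped. With peaks at q-values up to 0.05 alone, the count was 6 of 30 genes, beside 3.42% of all genes.

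Stem cell surface and niche genes had members at 8 of 30, with 13 members. They were Kit, Flt3, Cxcr4, Itga6, Cd44, Vwf, Notch1 and Alcam. Cxcr4, the receptor that holds stem cells in the marrow, had 3 members outside the gene. The best of them, at chromosome 1, 128570014 to 128571466, lay 16733 bp away and had folds of 4.86, 4.41 and 5.36 in KO1 to KO3, 4.55 in WT2 and 2.87 in WT3. The Notch1 member, inside the gene at chromosome 2, 26474595 to 26476727, had 4.52, 4.30 and 4.34 with 4.37 in WT1. Notch1 encodes a receptor that directs lymphoid fate. A member 14416 bp from Kit, the stem cell factor receptor, at chromosome 5, 75671138 to 75671801, had 4.21, 3.57 and 3.47 with 3.79 in WT2. At the Notch1 and Kit members the 1 listed wild-type fold lay within the knockout range.

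Cytokine signalling genes had members at 7 of 30, among them the kinase gene Jak2, the transcription factor gene Stat5b, the inhibitor gene Socs3, Csf2ra, and Smad3 and Smad7 of the TGF-beta pathway. Smad3, which transmits the signal, had 4 members and Smad7, which blocks it, 1. The Smad7 member lay 23756 bp away at chromosome 18, 75341818 to 75343609, and had folds of 4.85, 4.41 and 4.68 in KO1 to KO3, 3.12 in WT1 and 2.94 in WT2. Of 28 genes for subunits and regulators of protein phosphatase 2A itself, only Ppp2r5c, a regulatory B56 subunit, had members, and all 3 lay inside it. The best-ranked, at chromosome 12, 110458037 to 110459148, had 3.57, 3.69 and 3.59 in KO1 to KO3 and 4.21 in WT1. Its 1 wild-type fold was thus the highest, although the pileup was 7 against 12, 8 and 12.

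PI3K, MAPK and mTOR signalling genes, which include known targets of protein phosphatase 2A, had members at 11 of 30, with 16 members, at a median gene length of 68816 bp. Among them were Pik3r1, Rptor, Tsc2, Foxo3, Mapk8, Mapk14 and Dusp6. Rptor, a subunit of mTORC1, held 3 members inside it and had gene-end peaks in 3 knockout and 0 wild-type libraries, and Mapk8, the gene of a stress-activated kinase, had 1 member with that pattern at its ends. The member inside Pik3r1, the gene of a regulatory subunit of PI3K, at chromosome 13, 101691934 to 101692709, had folds of 4.36, 5.13 and 3.68 in KO1 to KO3 and 3.00 in WT2. The count was 6 with lists of equal length and 6 with peaks at q-values up to 0.05, and 7 without WT1 or without WT2.

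AP-1 and immediate early genes are switched on within minutes of a stimulus and are short, with a median length of 4291 bp. Members were assigned to 7 of 23: Fos, Fosl2, Egr1, Egr2, Nr4a3, Klf6 and Dusp1, all from outside the gene. The better-ranked of the 2 Fos members, at chromosome 12, 85532359 to 85533864, lay 55085 bp away and had folds of 5.75, 5.5 and 7.78 in KO1 to KO3, 4.0 in WT1 and 4.65 in WT2. The member near Dusp1, a phosphatase that ends MAPK signals, lay 19530 bp away at chromosome 17, 26484673 to 26486061, and had 4.88, 5.73 and 6.12 with 4.07 in WT1 and 2.94 in WT3. At both, all knockout folds exceeded all wild-type folds. The count fell to 3 without WT2, to 2 with peaks at q-values up to 0.05 and to 4 beyond 20 kb.

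NF-kB and inflammation genes had members at 10 of 28, with 12 members, at a median gene length of 17546 bp. They were the transcription factor gene Nfkb1, the inhibitor gene Tnfaip3, the adaptor gene Traf2, the receptor genes Tlr2 and Il1r1, the cytokine and chemokine genes Il1b, Il6 and Ccl2, Ptgs2, and the inflammasome gene Nlrp3. The member near Ccl2, at chromosome 11, 82006731 to 82007505, had folds of 4.79, 6.34 and 5.05 in KO1 to KO3, 3.30 in WT2 and 4.76 in WT3. That near Ptgs2, the gene of cyclooxygenase 2, lay at chromosome 1, 150164714 to 150166131, and had 4.68, 3.98 and 4.14 with 3.75 in WT1 and 3.57 in WT2. Gene-end peaks were absent in all 6 libraries at Ccl2, Ptgs2, Il1b and Il1r1, while Il6 had them in 3 knockout and 0 wild-type libraries. The count of genes was 4 without WT3 and 6 with peaks at q-values up to 0.05.

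Apoptosis genes had members at 4 of 26, namely Bcl2, Mcl1, Pmaip1 and Sesn1. Near Pmaip1, which encodes the pro-apoptotic NOXA, at chromosome 18, 66436576 to 66438190, the folds were 5.65, 5.98 and 5.37 in KO1 to KO3, 5.11 in WT2 and 3.98 in WT3. Near Mcl1, a survival factor of stem cells, at chromosome 3, 95644668 to 95646032, they were 3.63, 5.12 and 4.15 with 3.51 in WT2. Chromatin regulators had members at 8 of 30, among them Dnmt3a, the DNA methyltransferase often mutated in clonal hematopoiesis, and Hdac4, a class II deacetylase, with 3 each and no gene-end peak in any library. The best Hdac4 member, at chromosome 1, 92216153 to 92217390, lay 20451 bp away and had 6.80, 5.73 and 5.82 in KO1 to KO3 against 3.01 in WT1 and 2.98 in WT2. A second, at chromosome 1, 92224840 to 92225921, lay 29138 bp away, with 5.5, 4.55 and 5.51 against 3.16 in WT2 and 4.0 in WT3, so at these 2 of the 3 Hdac4 members the folds did not overlap. Single members were assigned to Tet2, Eed, Nsd1, Hdac9 and Dnmt3b.

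Lists of differentiated cells and other tissues had 1 to 5 assigned genes each. Members were assigned to 2 of 28 myeloid, 2 of 22 erythroid, 5 of 24 megakaryocyte, 3 of 26 lymphoid and B cell, 3 of 27 T and NK cell, 2 of 15 mast cell, 4 of 22 endothelial and stromal and 1 of 32 genes of other organs, and to 2 of 30 housekeeping genes. Distal regions with no wild-type peak and with 3, in this order, reached 4 and 8 myeloid, 4 and 0 erythroid and 2 and 3 megakaryocyte genes. They reached 2 and 2 lymphoid and B cell, 2 and 2 T and NK cell and 1 and 3 mast cell genes. For endothelial and stromal genes the counts were 4 and 2, for other organs 1 and 0, and for housekeeping genes 0 and 2. The differences between lists were not tested. Several of these lists hold short genes, such as the myeloid genes with a median of 4319 bp. Near Cebpb, a granulocyte transcription factor gene with 3 members, the best, at chromosome 2, 167759423 to 167760594, had folds of 3.21, 4.61 and 3.77 in KO1 to KO3, 3.49 in WT1 and 2.98 in WT3. The member 14289 bp from Rap1b, a platelet GTPase gene, at chromosome 10, 117860263 to 117861460, had 5.49, 3.90 and 4.38 with 3.43 in WT2 and 2.53 in WT3. Ikzf1, which directs lymphoid development, had 2, and at the better one, at chromosome 11, 11667391 to 11668367, WT1 with 3.96 and WT2 with 4.17 were above the knockout values of 3.31, 3.92 and 3.73. The pileups at this member were 7 in WT1 and 7 in WT2 against 9, 7 and 11 in KO1 to KO3. Bach2, a B cell repressor, had 3 members. The member 14139 bp from Acta2, a smooth muscle actin gene, at chromosome 19, 34269724 to 34270683, had 6.30, 6.11 and 5.68 against 3.8 in WT1 and 4.27 in WT3.

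Members lay alone in most cases, with 1484 having no other member within 50 kb. The other 953 (39.1%) fell into 395 groups, 11 of them with 5 or more. The largest groups had 8 members each. One lay within Sgms1, the gene of sphingomyelin synthase, over chromosome 19, 32179754 to 32272629. Its folds ran from 2.76 to 4.73 in the knockout and from 2.49 to 3.77 in the wild type, and no library had a peak at an end of Sgms1. The other lay beyond Cd24a, which encodes a surface antigen of blood progenitors, over chromosome 10, 43609277 to 43766276. Folds there ran from 2.91 to 6.33 in the knockout and from 2.53 to 5.36 in the wild type. A group of 6 lay over chromosome 4, 95160764 to 95270835, where the nearest protein-coding gene end, 108542 to 217490 bp away, was that of Jun, the partner of Fos in AP-1. Its folds were 3.26 to 4.92 in the knockout and 2.53 to 3.85 in the wild type. At 100 kb as the limit of assignment these 6 were not counted for Jun. By gene, Pde4d, a cyclic AMP phosphodiesterase gene, and Sgms1 had 8 members each, Asap1 and the transcription factor gene Foxp1 had 7 each, and Arid1b, Igf1r and Rreb1 had 6 each. These 7 genes are 174 to 1302 kb long.

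Peaks outside the members, which the rule did not use, gave 2 tests. The first asked whether a larger share of the other peaks of a library lay within 50 kb of a member in the knockout. The share was 22.0%, 19.2% and 21.6% in WT1 to WT3 and 21.4%, 23.5% and 24.7% in KO1 to KO3. KO1 lay below WT1 and WT3, so the groups overlapped. The wild-type mean was 20.9% ± 1.47 (SD, n = 3) and the knockout mean 23.2% ± 1.68 (SD, n = 3). The difference of 2.26 percentage points did not pass the two-sided exact permutation test (p = 0.3, adjusted over 2 tests 0.3, smallest possible p 0.1). It was 0.766 points without WT2, 1.57 without KO3 and 0.0498 with peaks at q-values up to 0.05. The ratio of 1.11 stood beside 1.14 for distal regions with no wild-type peak and 1.12 for those with 3.

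The second test asked whether the genes assigned to members were marked at their own ends more often in the knockout. Of the 1622 genes, 36.2%, 41.6% and 36.9% had a peak within 1000 bp of an end in WT1 to WT3, and 62.9%, 55.2% and 60.9% had one in KO1 to KO3. Every knockout library lay above every wild-type library. The means were 38.2% ± 2.94 (SD, n = 3) and 59.7% ± 4.03 (SD, n = 3), a ratio of 1.56, with a two-sided exact permutation p of 0.1 (adjusted over 2 tests 0.2), and 0.1 is the smallest p that 3 against 3 libraries allow. With peaks at q-values up to 0.05 the difference of 21.4 points became 36.7 points, from a knockout mean of 50.5% against 13.8%. That threshold left 3633, 4675 and 3645 peaks in WT1 to WT3 and 22099, 16090 and 23707 in KO1 to KO3. The set of assigned genes changed with it, and no share over all genes is given at this threshold. With lists of equal length the difference was 14.4 points. With all listed peaks, the shares over all protein-coding genes were 27.9% ± 2.05 (SD, n = 3) and 42.5% ± 2.39 (SD, n = 3). Their ratio was 1.53, beside 1.56 for the members' genes, and the difference between these ratios was not tested. The ratio was 1.62 for the genes of distal regions with no wild-type peak and 1.57 for those with 3.

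Of the 1622 genes, 442 (27.3%) had no gene-end peak in any library and 368 (22.7%) had one in all 6, against 48.7% and 17.2% of all protein-coding genes. A gene-end peak listed by all 3 knockout libraries but by no wild-type library was found for 85 (5.24%), beside 4.15% of all genes. The same share was 6.52% for the genes of distal regions with no wild-type peak and 5.09% for those with 3. These differences were not tested.

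**Figure D5:**
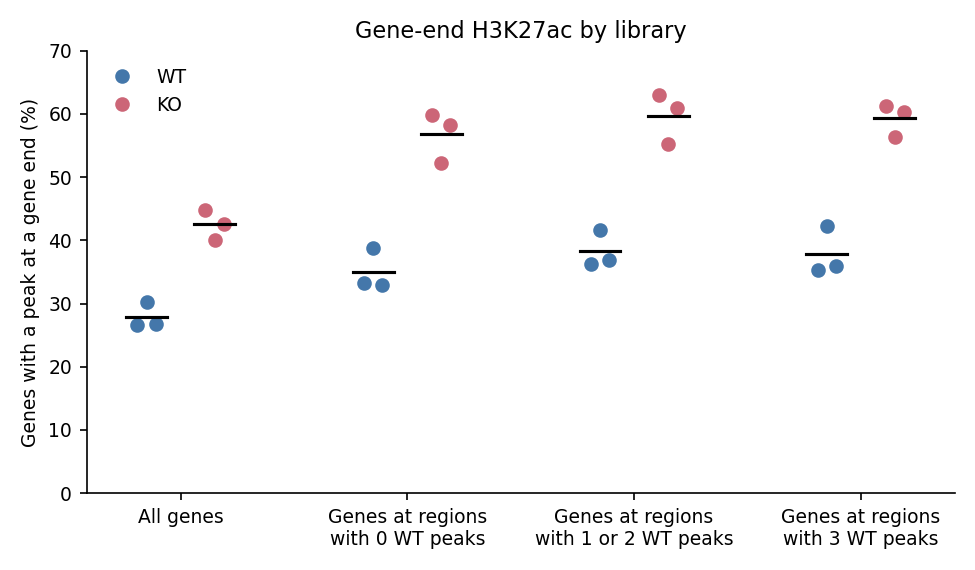
Percent of genes with a peak within 1000 bp of a gene end (y axis) in each wild-type (blue) and knockout (red) library, for all protein-coding genes and for the genes assigned to distal regions with 0, 1 or 2, and 3 wild-type peaks. Points are libraries and lines are group means. At the members' genes the wild-type libraries lie at 36.2% to 41.6% and the knockout libraries at 55.2% to 62.9%.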

How the data were processed

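The submitters' processing notes name BWA, MACS2, Trimmomatic, HOMER, ChIPseeker and deepTools, and the GRCm38/mm10 build. The sources used here do not give parameters, versions or any control library. The deposited data were 6 narrowPeak lists, 1 per library. Their deposited ratio is the fold over the caller's background at the summit, the deposited −log10 p-values and −log10 q-values belong to that summit, and the deposited score, 10 times −log10 p, was not used. These values depend on depth, and ranks were taken within lists. Fold, pileup, width and the share of peaks passing a q threshold were also set side by side between libraries. Those comparisons are descriptions without adjustment for depth.

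Regions, ranks and counts were computed in Python 3.11.15 with numpy 2.4.6 and pandas 2.3.3. Summit pileup was solved from fold and p-value, and a solution within a tolerance of 0.002 was found for 100% of member peaks. The solution need not be the only one. The lowest solved background at member peaks was 0.222 in each of KO1 to KO3, below their commonest backgrounds of 0.738, 0.465 and 0.827. How many pileups this affects was not counted. The best peak of a library in a region was the one with the highest −log10 p. Distances, gene bodies and start windows came from RefSeq GRCm38.p6. Of 483 entries in 18 gene lists, 481 matched by symbol. The members, lists and tests were chosen with earlier results of these data known. Named regions were the 10 best by rank in the weakest knockout library, the 2 best per list, the 3 largest groups, those nearest the 10 kb limit, the widest, and those with printed sequences. Some genes and regions that this rule selects are left unreported here. Other genes named for their counts of members or gene-end peaks were chosen after the values were seen. Comparisons of libraries used two-sided exact permutation tests over 20 assignments. The procedure recovered 218 of 218 member regions planted in simulated data. The sequences of whole regions and motif searches around peak summits, which were planned, were not analysed here because no genome was used.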

Additional observations from a re-analysis of the deposited data

How the results depend on the processing

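Alternatives were run for the member count, for the position inside genes, for both tests and, added after the data had been seen, for 4 gene lists and for all genes. The number of members, 2437 as reported, was 1408 with lists of equal length, 1261 when summits had to lie within 250 bp, 959 with peaks at q-values up to 0.05 and 41 at a −log10 q-value of 5 or more. Leaving out 1 library gave 1528 (without WT2) to 3246 (without KO2), since fewer libraries change the rule. The share inside genes, 59.4% as reported, was 56.6%, 56.7%, 56.5% and 39.0% in the same 4 settings.

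The gene-end difference of 21.4 percentage points was in the same direction in every alternative run, at 19.5 to 24.0 points with 1 library left out and 14.4 points with lists of equal length. It was 36.7 points (50.5% against 13.8%) at q-values up to 0.05 and 22.9 points (23.8% against 0.952%) at a −log10 q-value of 5 or more. At q-values up to 0.05 the wild-type lists kept 3633 to 4675 peaks and the knockout lists 16090 to 23707. The flanking difference of 2.26 points ran from 0.766 to 3.31 points with 1 library left out, was 4.12 points in windows of 100 kb and 0.0825 points in windows of 10 kb, and turned to -0.292 points at a −log10 q-value of 5 or more. The cause was not tested. With the replicate number as a block the p-values were 0.5 for the flanking share, at 2.26 points, and 0.25 for the gene-end share, at 21.4 points, over 8 assignments whose smallest p is 0.25. The deviations of peak presence in libraries with the same number had correlations of 0.0201, 0.0239 and -0.00993. The labels do not say whether the numbers pair the libraries. These correlations cannot decide it, since no known pair was at hand for comparison.

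The share of all genes with a member, 7.50%, was 4.87% with equal lists, 4.40% with the summit rule, 3.42% at a q-value of at most 0.05, 0.162% at a −log10 q-value of 5 or more, and 5.15% to 8.96% with 1 library left out. Genes listed as stem cell transcription factors with a member numbered 11 as reported, and 6, 5, 6 and 0 in those 4 settings, and 8 to 11 with 1 library left out. PI3K, MAPK and mTOR genes numbered 11, then 6 with equal lists, 6 at a q-value of at most 0.05, 1 at a −log10 q-value of 5 or more, 7 beyond 20 kb and 7 to 14 with 1 library left out. NF-kB genes numbered 10, then 6 and 0 at the q thresholds and 4 to 11 with 1 library left out. AP-1 genes numbered 7, then 2 and 0 at the q thresholds, 4 beyond 20 kb, 11 beyond 5 kb and 3 to 10 with 1 library left out. The few fragments under a wild-type peak, a median of 5, limit how firmly presence or absence in 1 wild-type library can be read.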
